A study of Mus musculus with 12 samples.

Results

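The transcription factor NRF2 and 9 genes of its antioxidant response were followed in the colonic tissue of mice with dextran sodium sulfate (DSS) colitis. The 10 genes, chosen by gene name from the 54532 genes of the count table, were Nfe2l2, Keap1, Gclc, Gclm, Slc7a11, Txnrd1, Srxn1, Gpx2, Nqo1 and Hmox1. All 10 passed the filter on low counts. RNA-Seq covered 12 male wild-type C57BL/6J mice aged 5 weeks, in 4 groups of 3. The control group was given neither DSS nor drug. The model group received DSS, a sulfated polymer that injures the colonic epithelium, in its drinking water. The Rhy group received DSS and Rhynchophylline (Rhy), an alkaloid of Uncaria, and the DXM group received DSS and dexamethasone (DXM, 4 mg/kg), a synthetic glucocorticoid. The Rhy dose of the sequenced mice is not given in the sources used here, and the RNA-Seq methods of the study name the control, model and Rhy groups but not DXM.

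NRF2, encoded by Nfe2l2, is a basic leucine zipper factor that is held in the cytoplasm and marked for degradation by KEAP1. Electrophiles and oxidants modify cysteines of KEAP1, after which NRF2 escapes degradation, pairs with a small MAF protein and binds antioxidant response elements in the promoters and enhancers of its targets. The targets make glutathione, reduce thioredoxin and peroxides, detoxify quinones and break down heme. NRF2 is controlled mainly at the level of its protein, which RNA-Seq does not measure. In the intestine the pathway is known for protecting the epithelium from oxidants that are released during colitis.

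The promoters are shown because the antioxidant response element is what these genes are known to share. The RefSeq table for build GRCm38.p6 held 8 of the 10 genes, all but Gclc and Hmox1. In the 250 bases before each annotated start, both strands were searched for TGACNNNGC, the core of the element, and for its variant TGAGNNNGC. Of 32851 promoters in that table, 10.2% held the first and 14.4% the second. A match to either was found in 23% of all promoters and in 5 of the 10 promoters of these 8 genes (Txnrd1 has 3), 1 each of Nfe2l2, Gclm, Txnrd1, Srxn1 and Slc7a11. The windows of Keap1, Nqo1, Gpx2 and the other starts of Txnrd1 held neither string, which says only that these letters were not in those windows. The promoters of 4 genes are given 5′ to 3′ on the coding strand, with the matches in capitals. They lie at chr2:75704664-75704913 on the minus strand (Nfe2l2), chr3:122245307-122245556 on the plus strand (Gclm), chr10:82858956-82859205 on the plus strand (Txnrd1, the second of its 3 annotated starts) and chr2:152105274-152105523 on the plus strand (Srxn1).
Nfe2l2: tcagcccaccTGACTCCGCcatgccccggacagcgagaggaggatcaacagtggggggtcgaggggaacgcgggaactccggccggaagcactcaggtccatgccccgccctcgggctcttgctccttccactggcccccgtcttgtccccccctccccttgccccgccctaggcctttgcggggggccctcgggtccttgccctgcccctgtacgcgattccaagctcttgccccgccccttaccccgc
Gclm: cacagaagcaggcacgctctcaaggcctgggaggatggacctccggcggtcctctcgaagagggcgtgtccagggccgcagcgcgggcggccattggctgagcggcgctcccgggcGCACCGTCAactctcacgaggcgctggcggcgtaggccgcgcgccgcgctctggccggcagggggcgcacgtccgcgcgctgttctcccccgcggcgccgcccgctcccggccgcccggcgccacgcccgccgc
Txnrd1: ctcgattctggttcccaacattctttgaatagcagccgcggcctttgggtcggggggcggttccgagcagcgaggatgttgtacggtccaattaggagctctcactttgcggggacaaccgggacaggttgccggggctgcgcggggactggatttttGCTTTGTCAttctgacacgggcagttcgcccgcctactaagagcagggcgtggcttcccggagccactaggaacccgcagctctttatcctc
Srxn1: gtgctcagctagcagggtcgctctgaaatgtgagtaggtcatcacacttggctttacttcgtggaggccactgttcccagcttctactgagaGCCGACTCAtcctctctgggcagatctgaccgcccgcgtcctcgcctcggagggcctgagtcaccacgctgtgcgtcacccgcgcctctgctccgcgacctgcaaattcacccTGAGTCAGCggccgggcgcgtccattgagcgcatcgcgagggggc
The match in Nfe2l2 lay 240 to 232 bases before the start, that in Gclm 134 to 126 bases and that in Txnrd1 92 to 84 bases before it. Srxn1 held 2 matches to the variant, at 158 to 150 and 45 to 37 bases, and the second overlaps TGAGTCA, the AP-1 string that 4.46% of all promoters held. Srxn1 held that string again at 102 to 96 bases, left in lower case. A match is a description of the sequence and no evidence of binding.

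Total counts were 14346478 to 17749716 per library. Values in CPM are counts relative to the TMM-scaled total of their library. Differences between groups come from edgeR's quasi-likelihood test, fitted once to the 12 libraries over 16904 genes. Model 1 and model 2 were much more alike than any other mice of a group, with a common dispersion of 0.00201 between them against at least 0.0827 for every other pair within a group. Hoxb13, a gene of the distal colon, stood at 0 to 1.489 CPM in control 3, model 3 and Rhy 1 and at 71.97 to 316.5 CPM in the other 9 libraries, with no DXM library among the low ones. The epithelial markers (9 of 9 passing the filter, among them Epcam and Cdh1) summed to 17910 to 30110 CPM over the 12 libraries. In bulk tissue, fewer cells of a type and less RNA per cell cannot be told apart.

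The levels of the 10 genes differed widely per unit of gene length. The authors' FPKM values, which divide by gene length and library size, averaged 69.2 for Gpx2 over the 12 mice, 53.8 for Nfe2l2, 48.2 for Srxn1, 36.4 for Nqo1 and 31.6 for Txnrd1. The subunits of the enzyme that makes γ-glutamylcysteine stood close together, at 23.1 FPKM for Gclc and 21.1 FPKM for Gclm, and Keap1 stood at 13.2 FPKM. Hmox1 was far lower at 3.29 FPKM, and Slc7a11 was lowest at 0.145 FPKM, from 3 to 71 counts per library. The order of neighbours among the leading genes did not exceed their spread over mice, for example 69.2 ± 45.5 (SD, n = 12) for Gpx2 and 53.8 ± 24.1 for Nfe2l2. The length that the table gives for Gpx2, 3222 bases, equals its whole span, so its FPKM is per base of the span.

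Nfe2l2 and Keap1 encode the factor and its inhibitor, and had 1651 to 6354 and 635 to 1248 counts per library. Nfe2l2 (chromosome 2, 75675513 to 75704641, minus strand, GRCm38) stood at 123.6, 303.5 and 348.8 CPM in control 1, 2 and 3, and at 166.7, 178.7 and 290.9 CPM in the model mice. In the Rhy mice it stood at 350.6, 131.1 and 170.5 CPM, and in the DXM mice at 149.3, 148.6 and 110.1 CPM. Control 1 was far below the other control mice, Rhy 1 was the highest of the 12, and the 3 DXM mice lay below all 3 model mice. The group means were 258.6 ± 119.1 (control), 217.4 ± 117.0 (Rhy), 212.1 ± 68.5 (model) and 136.0 ± 22.4 CPM (DXM; SD, n = 3 each). Keap1 (chromosome 9, 21229730 to 21239361, minus strand) was the steadiest of the 10 genes, with a 1.86-fold range over all mice. Its model mice stood at 67.29, 67.83 and 72.08 CPM and its DXM mice at 58.49, 60.16 and 45.33 CPM, again without overlap. The antisense gene Gm16754 overlaps Keap1 and had 7 to 32 counts per library. The control mice (47.55 to 69.75 CPM) overlapped the model mice, and the Rhy mice (55.23 to 84.16 CPM) lay on both sides of them.

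Gclc and Gclm encode the catalytic and the modifier subunit of glutamate-cysteine ligase, the rate-limiting enzyme of glutathione synthesis. Gclm (chromosome 3, 122245557 to 122270732, plus strand) stood at 77.8, 226.1 and 159.0 CPM in the control mice and at 123.5, 130.4 and 192.1 CPM in the model mice. The Rhy mice had 209.7, 108.9 and 109.0 CPM of Gclm and the DXM mice 90.86, 118.5 and 66.54 CPM. The DXM mice lay below all model mice, by a narrow gap between DXM 2 and model 1. Gclc (chromosome 9, 77754535 to 77794485, plus strand) ran from 40.46 CPM in DXM 3 to 187.6 CPM in control 2, but its DXM mice (40.46 to 79.27 CPM) overlapped the model mice (73.74 to 96.8 CPM). Slc7a11, the transporter that brings in cystine for glutathione synthesis (chromosome 3, 49892526 to 50443614, minus strand), had 13, 23 and 18 counts in the control mice and 51, 46 and 36 counts in the model mice. It had 3, 31 and 65 counts in the Rhy mice and 32, 71 and 34 in the DXM mice. The model mice were all above the control mice, and Rhy 1 was lowest of the 12.

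Txnrd1, Srxn1 and Gpx2 reduce thioredoxin, sulfinylated peroxiredoxins and hydroperoxides. Txnrd1 (chromosome 10, 82833951 to 82897712, plus strand) stood at 149.8, 267.7 and 282.6 CPM in the control mice, 260.5, 280.3 and 298.5 CPM in the model mice, 302.8, 199.0 and 215.1 CPM in the Rhy mice and 164.0, 182.7 and 118.5 CPM in the DXM mice. The 3 DXM values were below each of the 3 model values and each of the 3 Rhy values. Srxn1 (chromosome 2, 152105516 to 152111376, plus strand) ranged from 54.95 CPM in DXM 3 to 205.0 CPM in Rhy 1, and its model mice (127.6 to 150.5 CPM) overlapped every other group. Gpx2, the glutathione peroxidase of the gut epithelium (chromosome 12, 76792333 to 76795554, minus strand), ordered the mice in another way. It stood at 49.65, 96.87 and 138.2 CPM in the control mice and at 328.1, 319.4 and 146.8 CPM in the model mice. In the Rhy mice it stood at 114.2, 442.1 and 258.6 CPM and in the DXM mice at 133.5, 533.1 and 161.7 CPM. The control mice were below the model mice, but control 3 and model 3 lay next to each other at the border, and both had little Hoxb13. Gpx2 lies inside Fntb, which is on the other strand and had 212 to 476 counts per library, and the strand setting of the counting is not given in the sources used here. Its processed pseudogene Gpx2-ps1, to which reads of Gpx2 could be assigned, had 204 counts in model 3, 190 in DXM 3 and 0 to 8 in the other 10 libraries. These values were noted after the data were seen, and leave Gpx2 uncertain in model 3 and DXM 3, where Gpx2 itself had 2465 and 3193 counts.

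Nqo1 reduces quinones and is among the best known targets of NRF2, and Hmox1 opens the heme ring. Nqo1 (chromosome 8, 107388225 to 107403206, minus strand) stood at 27.26, 108.6 and 60.88 CPM in the control mice, 52.62, 50.72 and 108.1 CPM in the model mice, 116.3, 35.33 and 42.61 CPM in the Rhy mice and 32.02, 41.16 and 9.572 CPM in the DXM mice. It spanned a 12.2-fold range, and DXM 3 was lowest of the 12. Hmox1 (chromosome 8, 75093621 to 75100589, plus strand) stood at 4.418, 9.666 and 7.136 CPM in the control mice, 3.75, 4.186 and 4.825 CPM in the model mice, 3.168, 3.853 and 8.035 CPM in the Rhy mice and 5.417, 5.929 and 9.47 CPM in the DXM mice. The DXM mice were all above the model mice, the reverse of Nqo1.

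**Figure D1:**
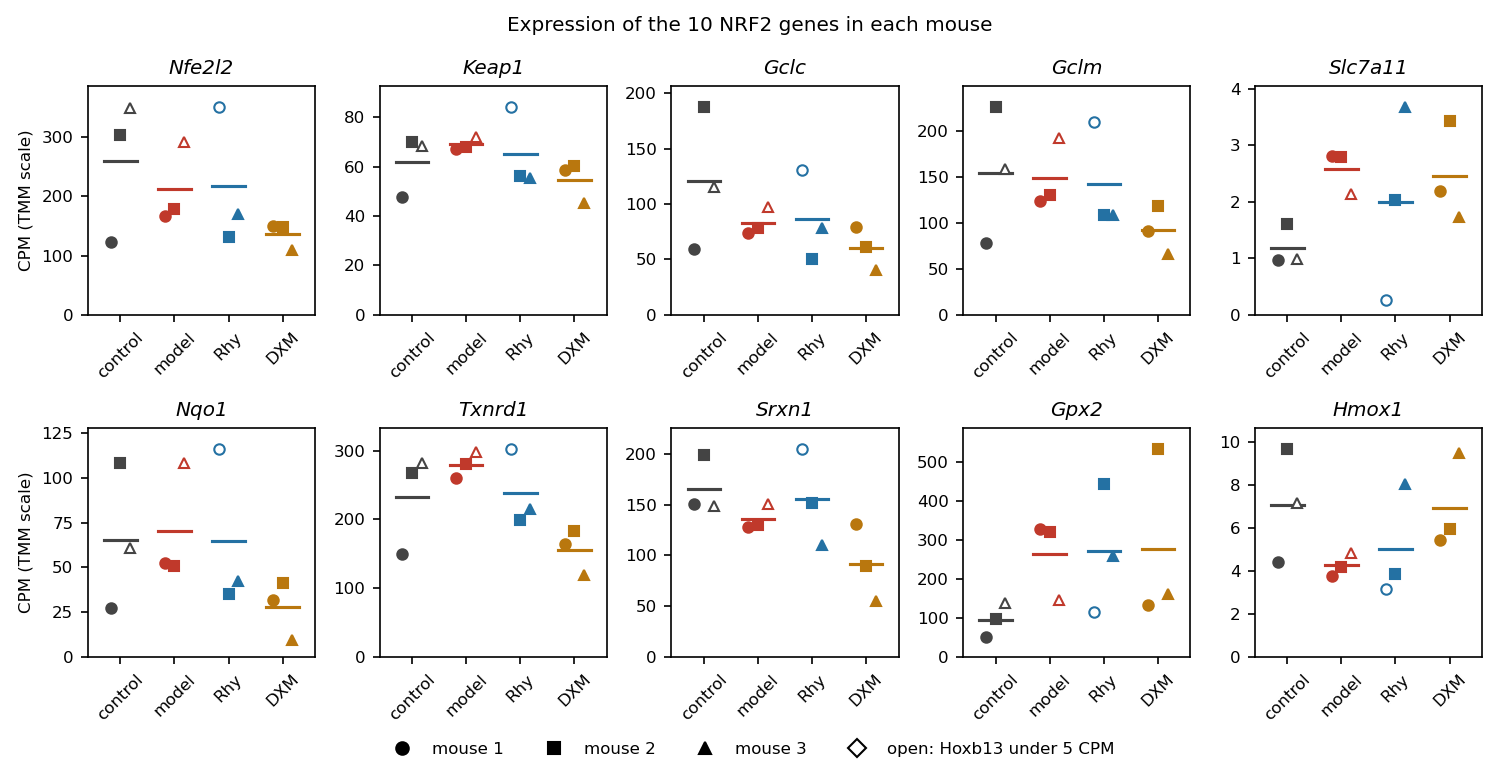
CPM on the TMM scale (y axis, linear from 0) of the 10 genes in each mouse by group (x axis); symbols mark mouse 1, 2 and 3, open symbols the libraries with Hoxb13 under 5 CPM, and bars the group means. The DXM mice lie below the model mice in Txnrd1 (118.5 to 182.7 against 260.5 to 298.5 CPM) and Nqo1, and above them in Hmox1.

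The first comparison asked what DSS did to these genes. Of the 10 genes, 5 were higher (50.7% of all genes were) and 5 lower (49.3%) in the model than in the control group, with a median log2 fold change of 0.025 against 0.006 over all genes tested. After Benjamini-Hochberg adjustment edgeR called 0 of the 10, where 0% of all genes passed and the smallest adjusted p of any gene was 0.459. Unadjusted p was under 0.05 for 1 of the 10 (Gpx2), against 9.62% of all genes. DESeq2 on the 6 libraries compared called 0 after adjustment (1.13% of all genes) and had 2, Gpx2 and Slc7a11, at an unadjusted p under 0.05 (6.40%). The groups did not overlap for 2 genes, Gpx2 and Slc7a11, both higher in the model group, against 10.4% of all genes higher without overlap. Gpx2 was 2.79-fold higher (log2 fold change 1.48 ± 0.62, SE, edgeR adjusted p = 0.495). Slc7a11 was 2.17-fold higher from few counts (log2 fold change 1.12 ± 0.66, edgeR adjusted p = 0.603). Hmox1 was 1.66-fold lower (log2 fold change -0.73 ± 0.41, edgeR adjusted p = 0.586), and its groups overlapped through control 1. The macrophage markers (8 of 8 passing the filter) summed to 86.21 to 93.52 CPM in the model and 93.88 to 229.3 CPM in the control mice. The neutrophil markers (4 of 7 passing) summed to 687.3, 37.06 and 3.348 CPM in control 1, 2 and 3, and to 30.56 to 118.4 CPM in the model mice. The part of these markers in the result was not tested. Nfe2l2 (-0.29 ± 0.42), Keap1 (0.16 ± 0.22), Txnrd1 (0.26 ± 0.27) Nqo1 (0.10 ± 0.62), Srxn1 (-0.29 ± 0.30) and Gclm (-0.05 ± 0.39) differed by less than 1 SE, and Gclc by little more (-0.54 ± 0.42). Without the 3 libraries low in Hoxb13, the log2 fold change of Gpx2 was 2.10 and edgeR's adjusted p 0.225, and that of Nqo1 turned to -0.44. In that setting Gpx2 and Slc7a11 were again higher without overlap, as were 28.0% of all genes, and Srxn1 and Hmox1 were lower in the model group without overlap, from 2 mice per group, where 24.1% of all genes were. The model mice left were the nearly alike model 1 and model 2.

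The second comparison asked what Rhy added to DSS. The 10 genes split 5 higher (48.3% of all genes were) and 5 lower (51.7%) in the Rhy against the model group, with a median log2 fold change of -0.013 against -0.015 over all genes. edgeR called 0 of them after adjustment (0% of all genes) and 0 at an unadjusted p under 0.05 (3.72% of all genes). DESeq2 on the 6 libraries compared likewise gave 0 after adjustment (0.261% of all genes) and 0 unadjusted (3.74%). The groups overlapped for all 10, where 11.5% of all genes had groups apart, 5.51% higher and 6.02% lower. The largest differences were those of Slc7a11 (log2 fold change -0.36 ± 0.64, edgeR adjusted p = 1) and Hmox1 (0.24 ± 0.41), and Nfe2l2 itself differed by 0.04 ± 0.42. The Rhy mice differed widely among themselves. Rhy 1 was higher than all 3 model mice for 7 genes, namely Nfe2l2, Keap1, Gclc, Gclm, Txnrd1, Srxn1 and Nqo1, while Rhy 2 was lower than all 3 model mice for 6 of those, Srxn1 being the exception. Hoxb13 was listed at 0 in Rhy 1, and its goblet, macrophage, B cell and T cell markers summed to the lowest values of the 12 libraries (1407, 35.96, 48.2 and 7.791 CPM). Their part in the result was not tested. Without the libraries low in Hoxb13, Keap1, Gclm, Txnrd1 and Nqo1 were lower in the Rhy than in the model mice without overlap, from 2 mice per group, where 29.1% of all genes were lower without overlap. The model mice were then only the nearly alike model 1 and model 2.

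The third comparison set DXM with DSS against DSS alone, and shares the model mice with the second. Of the 10 genes, 8 were lower in the DXM group, against 51.5% of all genes, and 2 higher, against 48.5%. The median log2 fold change was -0.512 against -0.015 over all genes. Nfe2l2, Keap1, Gclm, Txnrd1 and Nqo1 were lower without overlap, 5 of 10 against 12.2% of all genes, and Hmox1 was higher without overlap, 1 of 10 against 10.4% of all genes. The 5 lower genes were high and low in the same mice, as given below, and so are not 5 separate observations. edgeR called 0 of the 10 after adjustment, with 0% of all genes called and 0.622 as the smallest adjusted p of any gene, and 1 of the 10 (Txnrd1) at an unadjusted p under 0.05, against 7.69% of all genes.

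Txnrd1, thioredoxin reductase of the cytosol, had the smallest p of the 10 genes. It was 1.81-fold lower with DXM (155.1 ± 33.0 against 279.8 ± 19.0 CPM, SD), with a log2 fold change of -0.85 ± 0.27 (edgeR adjusted p = 0.622). DESeq2 on the 6 libraries compared gave -0.83 ± 0.23 with an adjusted p of 0.0141, in a fit that called 3.50% of all genes, and called 0 of the other 9. At an unadjusted p under 0.05, that fit had 5 of the 10 (Txnrd1, Nqo1, Gclm, Nfe2l2 and Hmox1) against 9.33% of all genes. Nqo1 was 2.56-fold lower (27.6 ± 16.2 against 70.5 ± 32.6 CPM; log2 fold change -1.35 ± 0.63, edgeR adjusted p = 0.653), and DESeq2 on the same 6 libraries gave an adjusted p of 0.0875. Gclm (-0.69 ± 0.39), Nfe2l2 (-0.64 ± 0.42), Srxn1 (-0.57 ± 0.30), Gclc (-0.46 ± 0.42) and Keap1 (-0.34 ± 0.22) were lower by 1 to 2 SE. Hmox1 was 1.63-fold higher (log2 fold change 0.71 ± 0.41, edgeR adjusted p = 0.684). Gpx2 (0.06 ± 0.61) and Slc7a11 (-0.08 ± 0.63) differed by far less than 1 SE.

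Model 3 was low in Hoxb13 and no DXM mouse was. Without the 3 libraries low in Hoxb13 the same 5 genes were lower and Hmox1 was higher without overlap, from 2 model and 3 DXM mice, where 20.2% of all genes were lower and 16.7% higher without overlap. The model mice left were model 1 and model 2, the pair with a common dispersion of 0.00201, so their spread is hardly that of separate mice. The log2 fold change of Txnrd1 was then -0.79, while that of Nqo1 shrank to -0.89, that of Nfe2l2 to -0.33 and that of Gclm to -0.45. The macrophage markers (8 of 8 passing the filter) summed to 109.1 to 286 CPM in the DXM and 86.21 to 93.52 CPM in the model mice. They were on the same side as Hmox1 here, and single mice differed in this. Control 1 had 229.3 CPM of these markers and 4.418 CPM of Hmox1, and control 2 had 93.88 and 9.666 CPM. Rhy 1 was low in both, at 35.96 and 3.168 CPM, and DXM 3 high in both, at 286 and 9.47 CPM. The smooth muscle markers (8 of 8 passing) summed to 5067 to 9177 CPM in the DXM and 3623 to 4755 CPM in the model mice, and the epithelial markers to 17910 to 21500 against 18530 to 21810 CPM. The neutrophil markers (4 of 7 passing, Elane at 0 in every library) summed to 198.2 to 282.3 CPM in the DXM and 30.56 to 118.4 CPM in the model mice. Their part in the result was not tested.

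**Figure D2:**
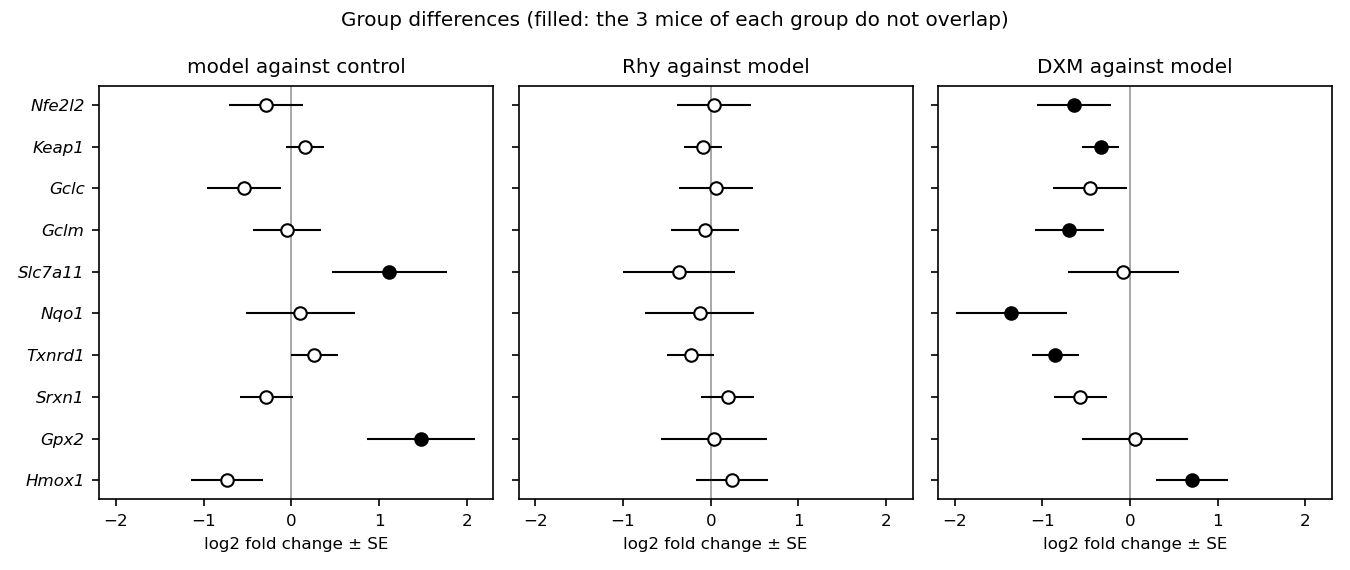
log2 fold change with its standard error (x axis) of the 10 genes (y axis) in the 3 comparisons, with filled points where the 3 mice of each group do not overlap. In the DXM comparison 6 points are filled, 5 below 0 and Hmox1 above, and in the Rhy comparison none is.

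Across mice, 7 of the 10 genes were high and low in the same mice. The 7 are Nfe2l2, Keap1, Gclc, Gclm, Txnrd1, Srxn1 and Nqo1, put together after their values were seen, so no test was made. Pearson's r of log2 CPM over the 12 libraries was 0.664 to 0.956 among their 21 pairs (median 0.864). Taken as deviations from the group means, r was 0.503 to 0.956 (median 0.895), with 19 of 21 pairs above 0.6. Over all pairs of genes tested the median r was 0.0015 and 7.12% of pairs were above 0.6, while 22 of the 45 pairs of the 10 genes (48.9%) were. The points share their libraries, with their depth and tissue make-up, and mice of 4 groups.

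Gpx2, Slc7a11 and Hmox1 stood outside that group. Their r with the 7 genes was -0.488 to 0.0879, and Gpx2 and Slc7a11 had an r of 0.635 with each other. Srxn1 was the least alike of the 7 in its order of mice, since control 1 ranked 4 and Rhy 2 ranked 3 for Srxn1, against 10 or 11 and 8 to 11 for the other 6 genes. Rhy 1 ranked 1 or 2 for all 7, control 2 and model 3 were among the 4 highest for 6 of 7, as was control 3, and DXM 3 ranked 12 for all 7. Of the 3 mice low in Hoxb13, each was among the 4 highest for at least 6 of the 7 genes, and control 2, with 71.97 CPM of Hoxb13, was the other mouse of which this held. Txnrd1 stood at 282.6 to 302.8 CPM in the 3 low mice and at 118.5 to 280.3 CPM in the other 9, without overlap. Gpx2 stood at 114.2 to 146.8 CPM in the 3 low mice, within the 49.65 to 533.1 CPM of the others. The goblet markers (7 of 7 passing the filter) summed to 1407 CPM in Rhy 1 and 1732 CPM in control 2, and to 13600 CPM in DXM 3. In control 3 and model 3, also among the highest for the 7 genes, they summed to 11120 and 9574 CPM. The part of these markers was not tested.

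**Figure D3:**
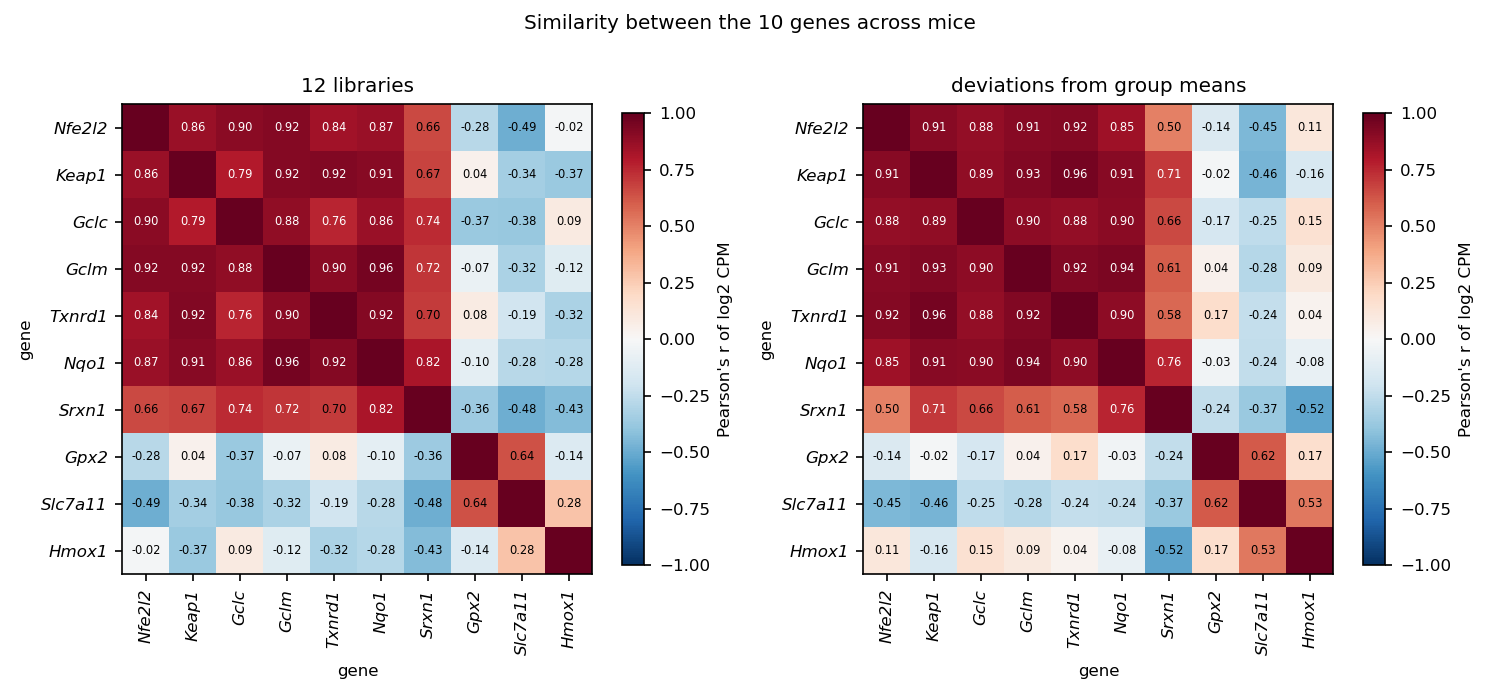
Pearson's r of log2 CPM between the 10 genes (both axes), over 12 libraries (left) and as deviations from the group means (right), on a colour scale from -1 to 1. The block of 7 genes holds r of 0.664 to 0.956 on the left, and Gpx2, Slc7a11 and Hmox1 fall outside it.

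**Figure D4:**
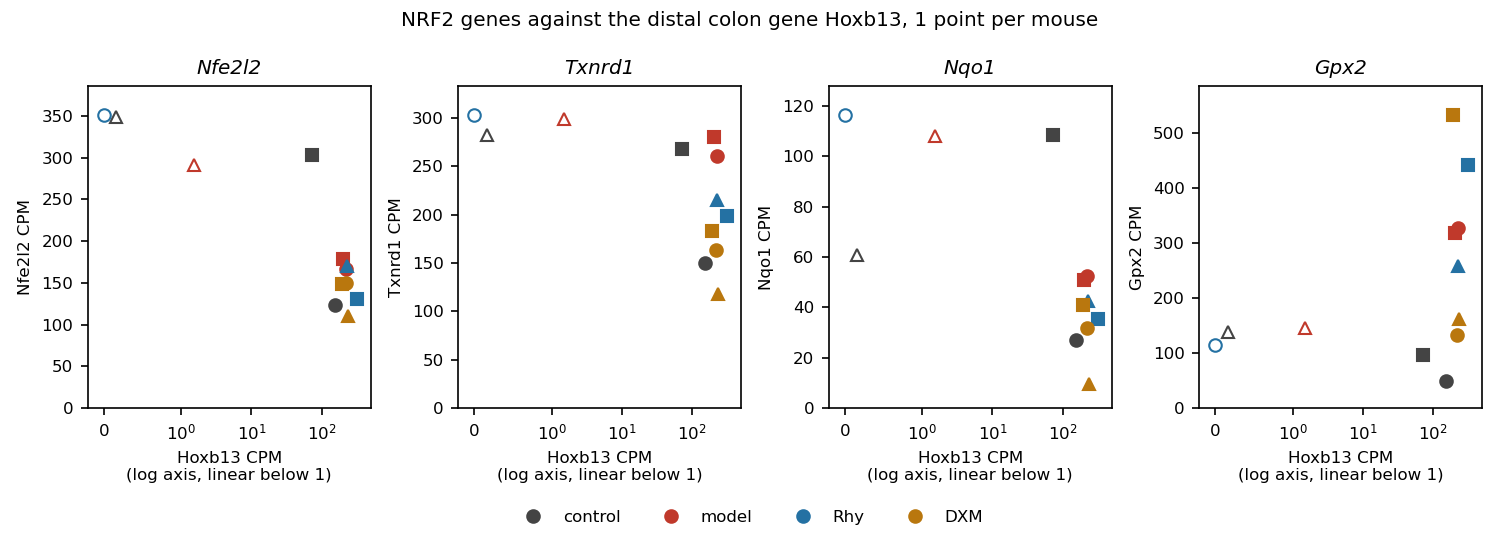
CPM of Nfe2l2, Txnrd1, Nqo1 and Gpx2 (y axes, linear from 0) against CPM of Hoxb13 (x axes, log scale, linear below 1), 1 point per mouse, coloured by group, open where Hoxb13 was under 5 CPM. For Txnrd1 the 3 open points (282.6 to 302.8 CPM) lie above the other 9.

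Among all genes tested, those whose log2 CPM was most like each of the 10 over the 12 libraries were found by Pearson's r. These are the highest r among all other genes tested, from 12 libraries. The best r of genes outside the 10 was not computed, so they describe likeness only. Nfe2l2 was most like Slc35d1 (r = 0.98) and Ank (0.979), Keap1 most like Cep19 (0.963) and Tmem98 (0.962), and Gclc most like Tgfa (0.982) and Prkaa1 (0.977). Gclm was most like Suclg2 (0.97) and Strbp (0.968), Txnrd1 most like Sec24c (0.964) and Cyb5b (0.96), and Srxn1 most like Ppfia3 (0.974) and Mall (0.971). Nqo1 was most like Taldo1 (0.962), the transaldolase of the pentose phosphate pathway, and Suclg2 (0.96). Gpx2 was most like Ttc13 (0.968) and Acat2 (0.932), and Slc7a11 most like Hacl1 (0.952) and Fancm (0.935). Hmox1 had the loosest likeness, to Ptar1 (0.876) and 4930430F08Rik (0.856).

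A wider list of 53 genes of the NRF2 pathway gave the setting of the 10, and all 53 passed the filter. edgeR called 0 of the 53 after adjustment in each comparison. Against control, 34 were higher and 19 lower in the model group, with a median log2 fold change of 0.144. At an unadjusted p under 0.05, 5 were higher (5.11% of all genes were) and 2 lower (4.51%), and 13 were higher without overlap (10.4% of all genes) and 5 lower (6.61%). Genes that use and recycle glutathione were mostly on the higher side, 12 of 15, with a median of 0.461. Gsta4, a glutathione transferase for lipid aldehydes, stood at 79.3, 81.64 and 83.22 CPM in the control and 114.7, 109.4 and 154.9 CPM in the model mice (log2 fold change 0.63 ± 0.18, edgeR adjusted p = 0.459). Pir, which encodes pirin, had 4.614 CPM in the control and 9.313 CPM in the model group (log2 fold change 1.01 ± 0.35, edgeR adjusted p = 0.479). Mafk, a small MAF partner of NRF2, was lower at 60.54 against 91.08 CPM (log2 fold change -0.59 ± 0.22), and Mgst2, a microsomal glutathione transferase, was lower at 127.5 against 206.3 CPM (log2 fold change -0.69 ± 0.31). Without the 3 libraries low in Hoxb13, the split of the 53 was 25 higher and 28 lower.

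In the Rhy against the model group, 29 of the 53 were higher and 24 lower, with a median of 0.043. At an unadjusted p under 0.05, 1 was higher (1.74% of all genes) and 1 lower (1.98%), and 5 were higher without overlap (5.51% of all genes) and 2 lower (6.02%). The 6 genes of the thioredoxin system, catalase and the dismutases were all on the higher side (median 0.166), each with overlap. Their log2 fold changes ran from 0.05 ± 0.32 for Prdx1 to 0.63 ± 0.65 for Prdx6, named as the ends of the range after their values were seen. Without the 3 libraries low in Hoxb13, the split of the 53 was 34 higher and 19 lower. Blvra, the biliverdin reductase that follows Hmox1 in heme breakdown, stood at 25.34, 26.32 and 31.97 CPM in the Rhy and 19.63, 19.42 and 24.9 CPM in the model mice (log2 fold change 0.39 ± 0.17, edgeR adjusted p = 1). Bach1, a repressor that competes with NRF2 for its sites, had 58.64 against 45.25 CPM without overlap (log2 fold change 0.37 ± 0.20). Ugt1a6a, a glucuronosyltransferase, had 2.748 against 7.296 CPM (log2 fold change -1.41 ± 0.60), and Mafg, another small MAF, 34.71 against 48.47 CPM with overlap (log2 fold change -0.48 ± 0.24).

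With DXM, 38 of the 53 were lower than in the model group and 15 higher, with a median of -0.284. At an unadjusted p under 0.05, 4 were lower (2.80% of all genes) and 1 higher (4.89%), and 17 were lower without overlap (12.2% of all genes) and 2 higher (10.4%). The 6 genes listed under supply of NADPH, the electron donor of Nqo1 and Txnrd1, were all lower, with a median of -0.484, and 5 of them without overlap. Those 5 were G6pdx (-0.32 ± 0.21), Pgd (-0.44 ± 0.22), Tkt (-0.53 ± 0.22) and Taldo1 (-0.64 ± 0.31) of the pentose phosphate pathway and malic enzyme Me1 (-0.97 ± 0.50), given as log2 fold changes with SE and chosen for naming after their values were seen. Tkt and Taldo1 belong to the branch of that pathway that does not itself make NADPH. Of the 15 genes that use and recycle glutathione, 13 were lower (median -0.388). Gstp1, a glutathione transferase, stood at 325.9, 343.3 and 321.3 CPM in the model and 195.3, 193.2 and 153.6 CPM in the DXM mice (log2 fold change -0.87 ± 0.33, edgeR adjusted p = 0.637). Osgin1, an oxidative stress-induced growth inhibitor, had 22.45 against 32.19 CPM (log2 fold change -0.52 ± 0.21). Slc48a1, a heme transporter, was higher at 51.3 against 38.28 CPM without overlap (log2 fold change 0.42 ± 0.15, edgeR adjusted p = 0.622), on the same side as Hmox1, and Maff, a small MAF, had 41.42 against 22.7 CPM with overlap. Without the 3 libraries low in Hoxb13, 32 of the 53 were lower (median -0.163) and 19 lower without overlap, where 20.2% of all genes were, and the 6 NADPH genes were again all lower. Only the nearly alike model 1 and model 2 were then left in the model group.

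**Figure D5:**
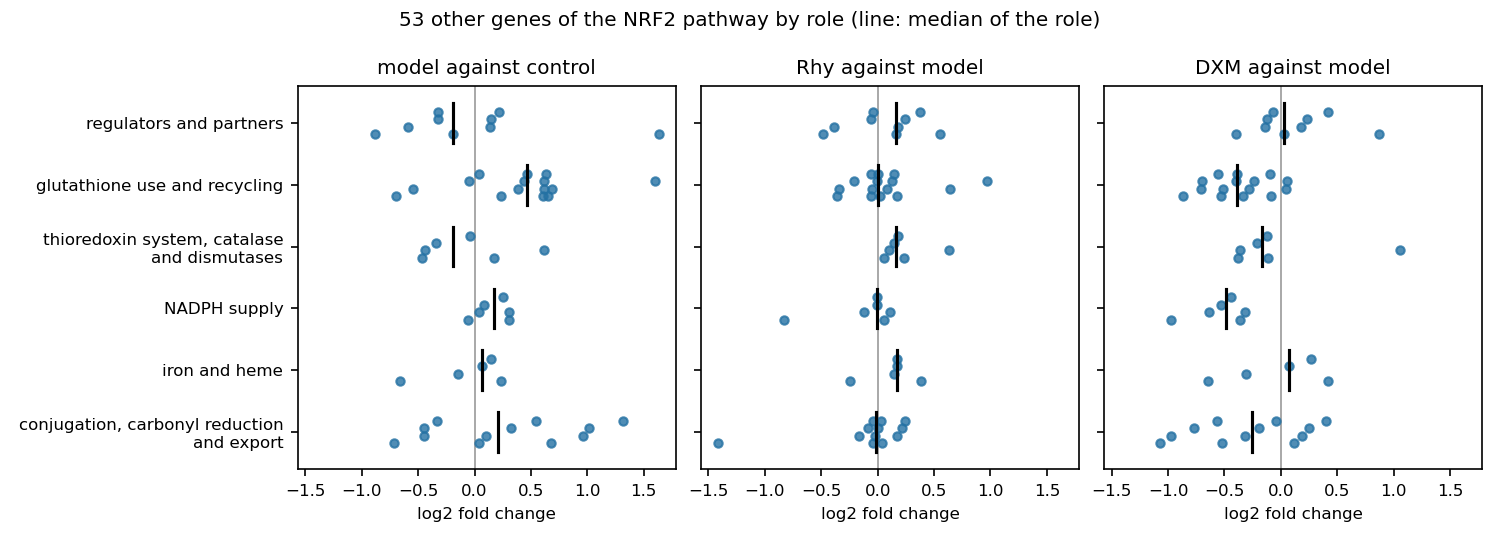
log2 fold change (x axis) of the 53 other genes of the NRF2 pathway, 1 point per gene, by role (y axis), with a line at the median of each role. In the DXM comparison the 6 genes listed under NADPH supply all lie below 0 with a median of -0.484, against 0.169 in the comparison of model with control.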

How the data were processed

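Colonic RNA of 12 mice was sequenced, 3 per group, and the groups were taken from the labelled treatment. The authors deposited counts, whole numbers of reads per gene without normalization, and FPKM values, which the authors scaled to gene length and library size. The labels' processing notes name HISAT2 2.0.5, featureCounts 1.5.0-p3, DESeq2 1.16.1 and build mm10, without their roles. Of 54532 genes, 24548 had no count. Tests used edgeR 4.0.16 under R 4.3.3. Its filterByExpr at a minimum count of 10 left 16904 genes, libraries were scaled by TMM, and glmQLFit and glmQLFTest (two-sided) were run on group means of all 12 libraries, with Benjamini-Hochberg adjustment within each comparison. Standard errors of log2 fold changes were derived from the F statistic (absolute log2 fold change over the root of F). CPM carried no prior count, and log2 CPM for correlations a prior count of 2. The deposited FPKM served to compare levels between genes and for limma 3.58.1 on log2(FPKM + 1). Alternatives were RLE scaling, no filter beyond 1 count, a fit of the compared groups alone, DESeq2 1.42.0, limma, a replicate block, model 1 and 2 as 1 library, and each library left out in turn. A term for Hoxb13 under 5 CPM, and leaving those libraries out, were added after the data were seen. The fits were tested on simulated counts. Depth was 14346478 to 17749716 counts per library; genes with few counts, here Slc7a11 and Hmox1, carry the larger counting error. In the fit to all 12 libraries, p-values rest on the spread between mice within groups, shared over the 4 groups of 3.

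The 10 genes and the lists were chosen with earlier results of these data known. Named genes were the 10, the 2 genes with the smallest p in each direction among 53 other pathway genes in each comparison, and the 2 genes most like each of the 10. The text says where another gene was picked with its values known. The roles described in each comparison were also picked with their values known. The replicate numbers were checked for pairing: deviations from group means of same-numbered mice had a correlation of 0.104 to 0.363 between model and control, every pair above the cut-off of 0.1. In that comparison 5 of 6 mice correlated best with the mouse of their own number. These are separate mice for which neither the labels nor the paper give a pairing. Correlations of this size do not establish one. The main fit was therefore read without pairing, and the replicate block served only as an alternative. In model against control the block left the count of genes at an unadjusted p under 0.05 at 1820 against 1626 and changed no call of the 10 genes. Promoters came from a RefSeq table of GRCm38.p6, and coordinates of genes from the deposited table.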

Additional observations from a re-analysis of the deposited data

How the results depend on the processing

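Of 753 values recomputed under the alternatives, 652 kept their direction and side of the threshold or stayed within 1.5 times, and 101 did not: 57 counts moved, 43 log2 fold changes turned in direction and 1 passed the threshold. For Txnrd1, Nqo1, Nfe2l2, Keap1, Gclm, Gclc, Srxn1 and Hmox1 with DXM, no alternative of 16 turned the direction. The same held for Gpx2, Slc7a11, Hmox1, Nfe2l2, Gclc, Srxn1 and Txnrd1 with DSS and for Txnrd1 with Rhy, among them differences of less than 1 SE. The causes were not tested. Depth limits Slc7a11 (3 to 71 counts) and Hmox1 (37 to 187 counts).

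Counts of genes at an adjusted p under 0.05 depended on the tool. They were 0 in edgeR, and with DESeq2 on only the groups compared 167 for model against control, 45 for Rhy against model and 589 for DXM against model, and with DESeq2 on all libraries 46, 5 and 53. edgeR on only the groups compared gave 1 for model against control and 2 for DXM against model, genes with any count gave 1 for model against control, and libraries with Hoxb13 of 5 CPM or more gave 2 for DXM against model. At an unadjusted p under 0.05, Rhy against model moved from 628 to 972 with every gene with any count, 1021 with DESeq2 on the groups compared and 1453 in libraries with Hoxb13 of 5 CPM or more, and DXM against model from 1300 to 2514 with edgeR and 2644 with DESeq2 on the groups compared. Model against control moved from 1626 to 2686 in libraries with Hoxb13 of 5 CPM or more. With model 1 and 2 as 1 library the counts were 866, 283 and 736.

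Of the 10 genes, DESeq2 on only the groups compared called 1 after adjustment (Txnrd1 with DXM). At an unadjusted p under 0.05, DXM against model had 5 with edgeR (2514 of 16287 genes tested) or DESeq2 (9.33% of all genes) on the groups compared. It had 2 with genes with any count (1756 of 29984 genes), DESeq2 on all libraries (1659 genes), limma (1343 genes) or the replicate block (1244 genes). The main fit had 1, with 7.69% of all genes. Model against control had 2 with edgeR (1581 of 15936 genes tested) or DESeq2 (6.40% of all genes) on the groups compared. It had 0 with model 1 and 2 as 1 library (866 of 17346 genes). With the term for Hoxb13 it also had 0. The share of all genes in that fit is not given here, so that 0 is not read as a result about the 10 genes. In libraries with Hoxb13 of 5 CPM or more, 4 had groups that did not overlap in model against control (52.1% of all genes) and 4 in Rhy against model (56.6%). limma gave 8 below 0 for Rhy against model.

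Directions turned as follows, as log2 fold changes; the largest to turn, with Rhy, were -0.36 for Slc7a11 and 0.24 for Hmox1. limma gave -0.018 for Nfe2l2, -0.0057 for Gclc and -0.048 for Gpx2 in Rhy against model, and -0.13 for Gpx2 with DXM. The replicate block gave -0.21 for Gpx2 with Rhy and -0.25 with DXM, and changed no other direction. Between these groups the mice share only a number (correlation -0.231 to 0.142 and -0.139 to -0.0146), and 0 of 6 mice correlated best with their own number. With model 1 and 2 as 1 library, Gclm was 0.048 in model against control and Nfe2l2 -0.092 with Rhy. The term for Hoxb13 gave -0.060 for Nqo1 in model against control, -0.034 for Nfe2l2 with Rhy and -0.046 for Gpx2 with DXM. Libraries with Hoxb13 of 5 CPM or more gave -0.44 for Nqo1 in model against control, -0.17 for Nfe2l2, -0.21 for Gclc and 0.057 for Slc7a11 with Rhy, and -0.21 for Gpx2 with DXM.

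With each library left out in turn, genes at an unadjusted p under 0.05 numbered 888 (without model 1) to 2811 (without control 3) for model against control, 289 (without model 1) to 1066 (without Rhy 1) for Rhy against model and 537 (without DXM 3) to 1594 (without DXM 2) for DXM against model. At an adjusted p, 0 to 1 passed in the first and in the second comparison, the 1 without model 3. Of the 10 genes, those with groups apart numbered 2 to 5 (5 without control 1, where 33.1% of all genes were apart), 0 to 4 (4 without Rhy 1, 32.8%) and 6 to 8 (8 without DXM 1, 41.2%), with 20.3% to 37.3%, 14.4% to 33.0% and 26.8% to 41.2% of all genes apart over these settings, those at an unadjusted p under 0.05 numbered 0 to 2 in the first comparison and 1 to 2 in the third, and those below 0 with Rhy numbered 3 to 7. In model against control, log2 fold changes were -0.0012 to 0.25 for Keap1, -0.39 to 0.68 for Nqo1 and -0.37 to 0.33 for Gclm. With Rhy they were -0.49 to 0.36 for Nfe2l2, -0.37 to 0.33 for Gclc, -0.45 to 0.20 for Gclm, -0.51 to 0.41 for Gpx2, -0.85 to 0.35 for Nqo1, -1.14 to 0.15 for Slc7a11, -0.056 to 0.39 for Srxn1, -0.31 to 0.020 for Keap1 and -0.27 to 0.49 for Hmox1. With DXM they were -0.84 to 0.39 for Gpx2 and -0.40 to 0.13 for Slc7a11, and, without turning, -0.99 to -0.69 for Txnrd1 and -1.77 to -0.89 for Nqo1.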
